A study of Mus musculus with 40 samples.

Results

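The genes described here were 3 ligands (Bdnf, Ntf3 and Gdnf) and 5 receptor genes (Ntrk2, Ntrk3, Ngfr, Ret and Gfra1) of the neurotrophin and GDNF families. They were chosen by name, as members of these families, and not by their values. All 8 symbols were found among the 40213 symbols of the count tables, in each of the 40 libraries. Of the 8, 7 passed the low-count filter in the midbrain, where Gdnf did not, and 6 passed it in the spinal cord, where neither Gdnf nor Ntf3 did.

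Neurotrophins are secreted proteins that neurons need for survival, growth and synaptic change. BDNF acts mainly through the receptor tyrosine kinase TrkB, which Ntrk2 encodes, and NT-3, the product of Ntf3, mainly through TrkC, which Ntrk3 encodes, while the p75 receptor encoded by Ngfr binds all mature neurotrophins and their uncleaved precursors. GDNF belongs to another family: it binds the membrane-anchored co-receptor encoded by Gfra1, and this pair activates the receptor tyrosine kinase Ret. In the midbrain, GDNF and BDNF are known as trophic factors of dopaminergic neurons, the cells that MPTP damages, and in the spinal cord Ret and Gfra1 are known in motor neurons.

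The study asked whether SUEHP, a herbal pharmacopuncture solution injected at the acupoint GB34 of the leg, eases pain in a mouse model of Parkinson's disease, and BDNF was one of the proteins its authors stained. Male C57BL/6N mice aged 8 weeks were used in all groups, and midbrain and spinal cord were sequenced from 5 groups with 4 libraries per group and tissue. Con mice received saline in place of MPTP and saline at GB34. MPTP-Veh mice received MPTP, a precursor of a dopaminergic neurotoxin, at 20 mg/kg in 4 intraperitoneal injections spaced by 2 h, and later saline at GB34. MPTP-SU mice received the same MPTP dose and, starting a week later, 4 SUEHP injections at GB34. MPTP-SU+S mice were in addition given SR141716A at 3 mg/kg, a CB1 cannabinoid receptor antagonist that the labels spell SR141714A, and MPTP-SU+T mice T0070907 at 5 mg/kg, a PPARγ inhibitor. No group received SUEHP or either drug without MPTP, so that what they do in intact mice cannot be read from these libraries. The labels do not say whether the 4 libraries of a group came from separate mice, and p-values therefore measure the spread between libraries.

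Each midbrain library held 11958200 to 16639823 counts, and each spinal cord library 14642808 to 16615378. The summed level of the spinal cord Hox genes separated the tissues as labelled: it was 0 to 1.77 CPM (counts scaled to a fixed library size) in the midbrain and 604 to 713 in the spinal cord. The library farthest from its group was midbrain MPTP-Veh replicate 4, in which mitochondrially encoded genes took 1.35% of the counts, against 9.92% to 17.5% in the other midbrain libraries, and the summed oligodendrocyte markers reached 35605 CPM, against 10285 to 14826 CPM in the others. Its counts differed from those of its group mates by a chi-square of 289 to 326 per gene. Spinal cord MPTP-SU+T replicate 1 (114 to 124 per gene, against 4.57 to 4.84 among its group mates) and spinal cord Con replicate 2 (86.5 and 92.8 against replicates 3 and 4, which differed by 4.48) also stood off. The noncoding RNA Gm26917 led these 2 libraries, at 10.99% and 8.04% of counts, and spinal cord Con replicate 1 at 3.34%. In the midbrain it led replicate 1 of MPTP-Veh (10.3%), MPTP-SU+S (8.18%) and MPTP-SU+T (7.15%), and all 4 MPTP-SU libraries at 3.84% to 14.3%. Midbrain replicate 1 also stood off, by 69.9 and 108 per gene from MPTP-Veh replicates 2 and 3, 56.7 to 85.4 within MPTP-SU+S and 65.7 to 100 within MPTP-SU+T. In midbrain MPTP-SU, replicates 1 and 2 differed by 9.12 per gene. They differed by 37.2 to 61.1 from replicates 3 and 4, which differed by 87.7 from each other. The mitochondrial gene COX1 led in every midbrain Con library, and the part of Gm26917 in the values below was not tested. Midbrain results are given with and without MPTP-Veh replicate 4 where they rest on it. No pair of replicates was a duplicate.

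**Figure D1:**
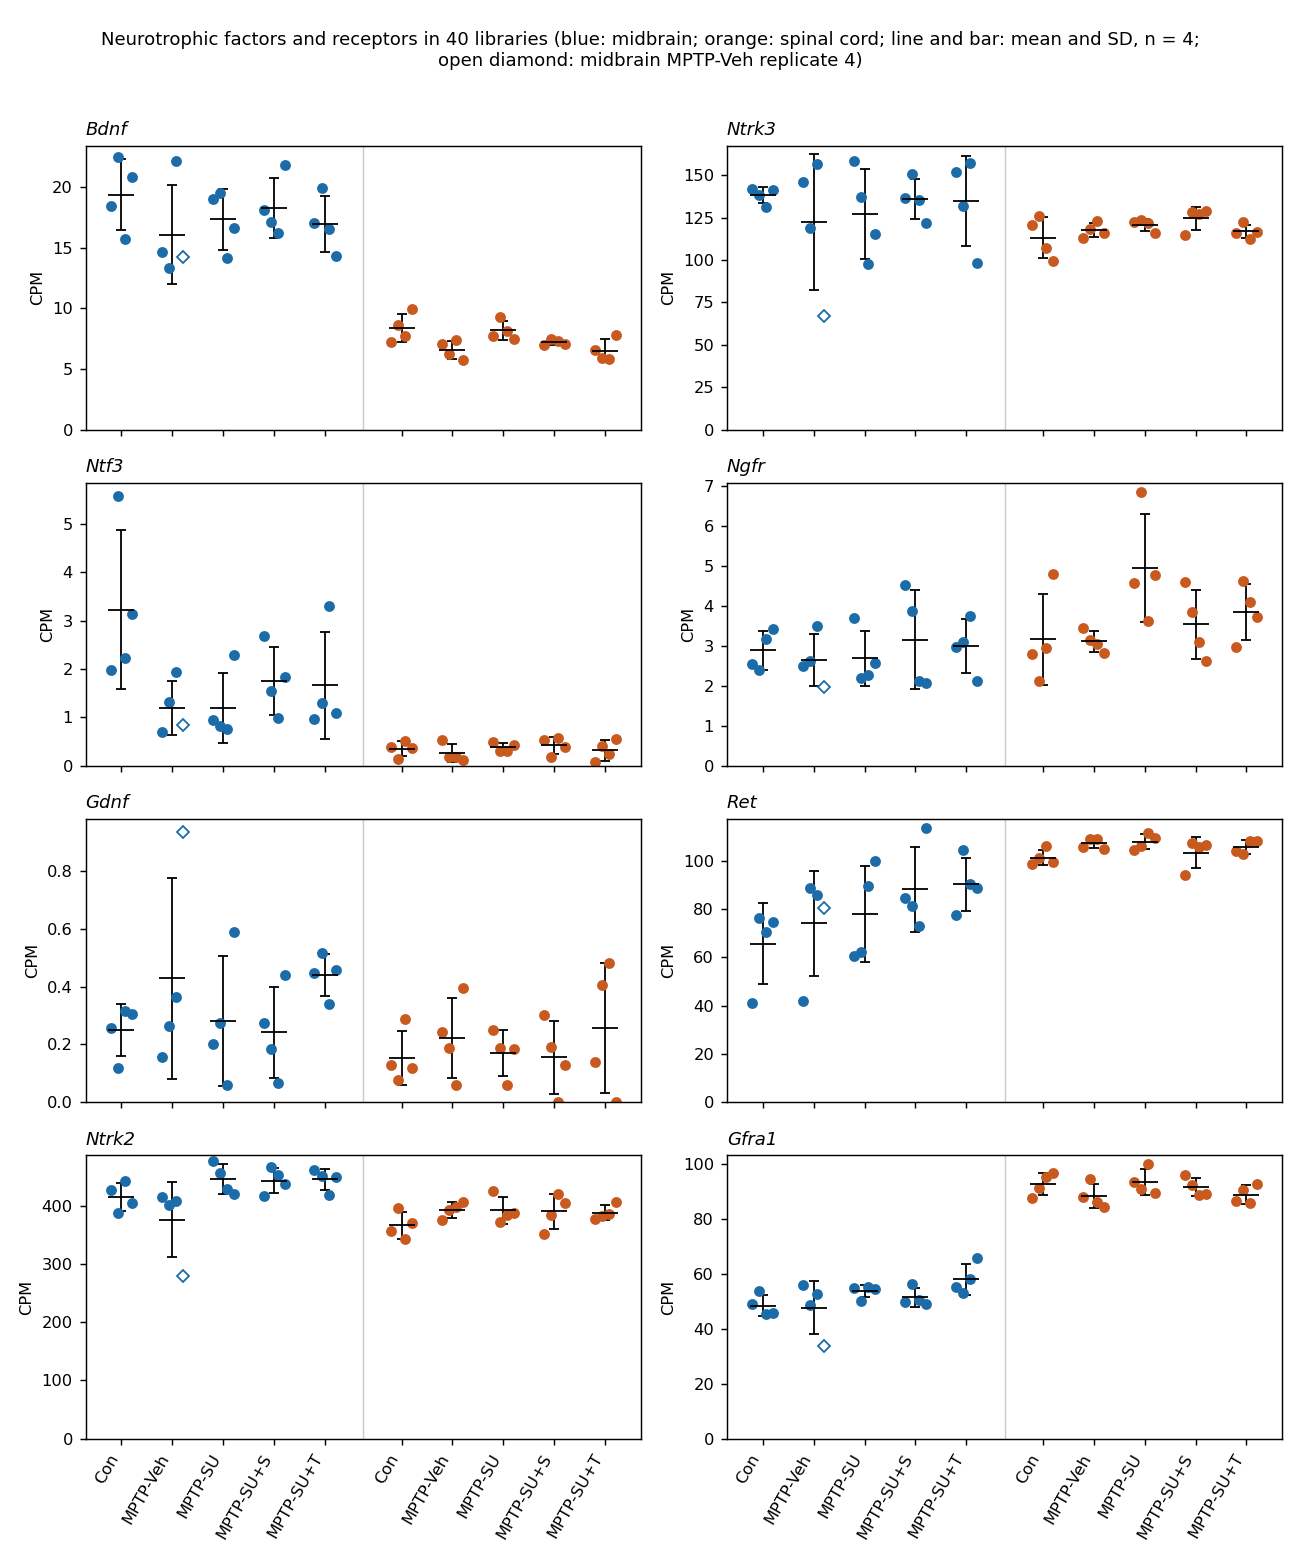
Level of each gene in CPM (y axis, from 0, a separate scale for each gene) in every library, by tissue and group (x axis). Points are libraries, bars show the mean and SD of 4 libraries, and the open diamond is midbrain MPTP-Veh replicate 4, in which Ntrk2 (279 CPM) and Ntrk3 (67.1 CPM) have their lowest level of all libraries.

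Bdnf is transcribed from several alternative first exons, and the tables give 1 summed count for all of them. The window upstream of one of its annotated starts is shown because it holds a variant of the cAMP response element, the octamer through which CREB is known to drive activity-dependent transcription. It lies at chr2:109692186-109692435 on the plus strand of GRCm38.p6, is taken from RefSeq, and ends at the base before the transcription start; capitals mark the octamer, which lies 30 bases upstream of the start.
Bdnf, 250 bases before the start: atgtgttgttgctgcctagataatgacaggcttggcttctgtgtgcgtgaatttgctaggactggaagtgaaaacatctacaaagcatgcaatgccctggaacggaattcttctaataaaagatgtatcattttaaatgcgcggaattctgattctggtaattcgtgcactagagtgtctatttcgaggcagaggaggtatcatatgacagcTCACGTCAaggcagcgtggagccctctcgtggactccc
Among all 32851 RefSeq windows of 300 bases, running from 250 before to 50 after a start and searched on both strands, 0.441% held TCACGTCA and 1.79% held the palindromic form TGACGTCA, which differs from it at the second base. Of the 14 windows found for 6 of the genes, 7 of them of Bdnf, this was the only one with TCACGTCA, and 0 held TGACGTCA. The match is a description of the letters, and the counts cannot be assigned to a start site.

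To compare genes with each other, CPM was divided by the length of the longest annotated transcript. On this scale Ntrk2, Ret, Gfra1 and Ntrk3 were above all 3 ligands in both tissues, whereas Ngfr was below Bdnf. Ntrk2 led, at 47.4 ± 2.76 CPM per kb (SD, n = 4) in Con midbrain and 41.9 ± 2.61 in Con spinal cord. Ret and Gfra1 followed at 12.0 ± 3.05 and 10.5 ± 0.855 CPM per kb in Con midbrain, and at 18.6 ± 0.594 and 20.0 ± 0.899 in Con spinal cord. In both tissues the SDs of these 2 genes overlapped. Both were measured in the same libraries, so that overlapping SDs do not settle their order, which was not tested within libraries.

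Ntrk3 came next in length-scaled level, at 7.02 ± 0.245 CPM per kb in Con midbrain and 5.75 ± 0.622 in Con spinal cord, followed by Bdnf at 4.54 ± 0.690 and 1.96 ± 0.277. Ntf3 reached 2.17 ± 1.11 CPM per kb in Con midbrain but 0.240 ± 0.103 in Con spinal cord, so that it stood above Ngfr (0.838 ± 0.143) in the former and below it (0.918 ± 0.333) in the latter. Gdnf was the lowest of the 8 in both, at 0.0680 ± 0.0247 and 0.0418 ± 0.0253 CPM per kb. Counts are summed per gene, so the full-length and kinase-lacking forms of TrkB and TrkC cannot be separated, and a transcript much shorter than the longest would be understated by this scale.

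**Figure D2:**
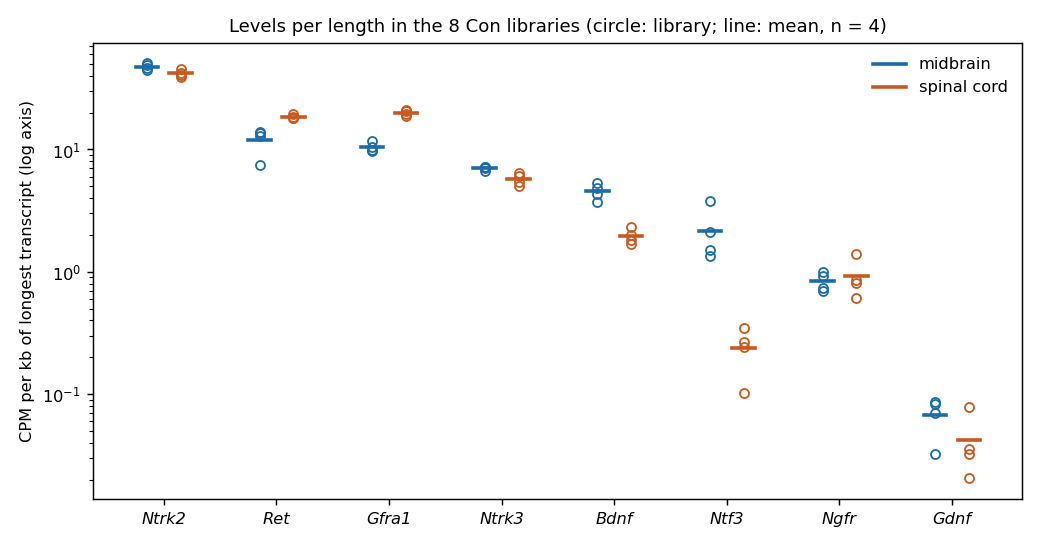
Length-scaled level (CPM per kb of the longest transcript, log axis) of the 8 genes in the 4 Con libraries of each tissue, as points with a line at the mean. Ntrk2 is highest at 47.4 and 41.9 CPM per kb and Gdnf lowest at 0.0680 and 0.0418.

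The spread among the 20 libraries of a tissue differed from gene to gene. In the spinal cord the coefficient of variation was 4.02% for Ret, 4.55% for Gfra1, 5.54% for Ntrk2 and 6.20% for Ntrk3, whereas Bdnf (14.8%), Ngfr (29.1%), Ntf3 (46.2%) and Gdnf (69.3%) varied more. In the midbrain all but Ngfr and Gdnf varied more than in the cord, with Ret at 23.1%. Gdnf rested on 1 to 10 counts per library in the midbrain and on 0 to 8 in the spinal cord, where 2 libraries had none. Its mean was 0.328 ± 0.203 CPM over the 20 midbrain and 0.192 ± 0.133 CPM over the 20 spinal cord libraries. The ranges overlapped, and edgeR tested no difference in Gdnf, which did not pass the low-count filter in either tissue.

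The comparison of Con midbrain with Con spinal cord describes where these genes are expressed without MPTP. The ligand genes Bdnf and Ntf3 were higher in the midbrain, and the GDNF receptor genes Ret and Gfra1 in the spinal cord. Of the 7 genes tested, 4 were called, meaning that they passed an edgeR quasi-likelihood adjusted p-value of 0.05 and a 1.5-fold change, in a comparison in which 17.4% of all 15987 genes tested were called, 7.74% as higher and 9.68% as lower in the midbrain. At an unadjusted edgeR p below 0.05 there were 6 of the 7, against 48.6% of all genes, and the 4 values of each tissue did not overlap for 5 of the 8, against 39.1%.

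Bdnf was measured at 18.5, 22.5, 15.7 and 20.8 CPM in the Con midbrain libraries and at 7.25, 8.59, 7.72 and 9.94 CPM in the Con spinal cord libraries. Every midbrain library lay above every spinal cord library. The mean was 19.4 ± 2.94 against 8.38 ± 1.18 CPM (n = 4 each), a log2 difference of 1.20 ± 0.13 (SE) or 2.30-fold, with an edgeR adjusted p of 2.60e-05.

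Ntf3 read 1.98, 5.57, 2.22 and 3.13 CPM in Con midbrain and 0.392, 0.151, 0.519 and 0.359 CPM in Con spinal cord. The groups did not overlap, and the midbrain values were spread widely, with replicate 2 far above the rest. On the log2 scale they differed by 3.11 ± 0.42, with a 95% interval of 2.19 to 4.03 and an edgeR adjusted p of 0.000116. The spinal cord level rested on 2 to 9 counts per library.

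Markers of cortical and hippocampal neurons, regions in which Bdnf and Ntf3 are known to be expressed and which adjoin a midbrain dissection, were examined beside these ligands. Their summed level was 1244, 1867, 816 and 1015 CPM in the Con midbrain libraries, against 441 to 799 CPM in the other 16 midbrain libraries and 477 to 536 CPM in the spinal cord. Con replicate 2, highest in these markers, was also highest in Ntf3 and in Bdnf. None of the 10 markers was at 0 in the midbrain, Slc17a7 ran from 28.6 to 378 CPM over the 20 midbrain libraries, and Slc17a7 and Fezf2 reached 0 in some spinal cord libraries. The spinal cord sum was led by Lamp5 (mean 210 CPM, against 22.8 CPM in the midbrain), Camk2a (153 CPM) and Rasgrf2 (90.3 CPM). It therefore does not measure cortical neurons, and the sums cannot be compared between tissues. Between the Con tissues edgeR called 6 of the 10 markers higher in the midbrain and 1 lower. Their part in the ligand values was not tested.

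Gfra1 read 49.0, 54.0, 45.3 and 45.9 CPM in Con midbrain and 87.7, 91.3, 95.6 and 96.8 CPM in Con spinal cord. The tissues were far apart, and Gfra1 had the lowest p-value of the genes tested, with a log2 difference of -0.95 ± 0.07 and an edgeR adjusted p of 1.38e-06. Its signalling partner Ret read 40.9, 76.3, 70.5 and 74.7 CPM in Con midbrain and 98.5, 101, 106 and 99.4 CPM in Con spinal cord. Ret did not overlap either, with replicate 1 lowest in the midbrain. The log2 difference of Ret was -0.64 ± 0.15 (edgeR adjusted p = 0.00591), and without that replicate it was -0.46 and no longer passed the 1.5-fold limit. In bulk tissue, fewer cells of a type and less RNA per cell cannot be told apart, here and in the comparisons that follow.

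The neurotrophin receptors differed less between tissues. Ntrk3 was higher in the midbrain, at 138 ± 4.83 against 113 ± 12.3 CPM, with no overlap, a log2 difference of 0.28 ± 0.08 and an edgeR adjusted p of 0.0141, but it stayed under the 1.5-fold limit. Ntrk2, at 415 ± 24.1 against 366 ± 22.8 CPM, gave a log2 difference of 0.17 (95% interval 0.03 to 0.31) and an edgeR adjusted p of 0.0575, which became 0.21 and 0.0211 without spinal cord Con replicate 2, still under the fold limit. Ngfr, at 2.89 ± 0.494 against 3.16 ± 1.15 CPM, gave -0.15 (95% interval -0.69 to 0.39). The interval of Ngfr still allows a difference above 1.5-fold in the direction of the spinal cord, so that equal levels were not shown.

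Over all groups, the 20 midbrain and 20 spinal cord libraries did not overlap for Bdnf, Ntf3 and Gfra1, against 9.08% of the 17426 genes tested over both tissues. Bdnf ran from 13.3 to 22.5 CPM in the midbrain and from 5.71 to 9.94 CPM in the cord, and Gfra1 from 33.9 to 66.0 and from 84.5 to 100 CPM. The lowest midbrain value of Ntf3, 0.700 CPM, stood just above the highest spinal cord value, 0.579 CPM. Ntrk2, Ntrk3, Ngfr, Ret and Gdnf overlapped.

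**Figure D3:**
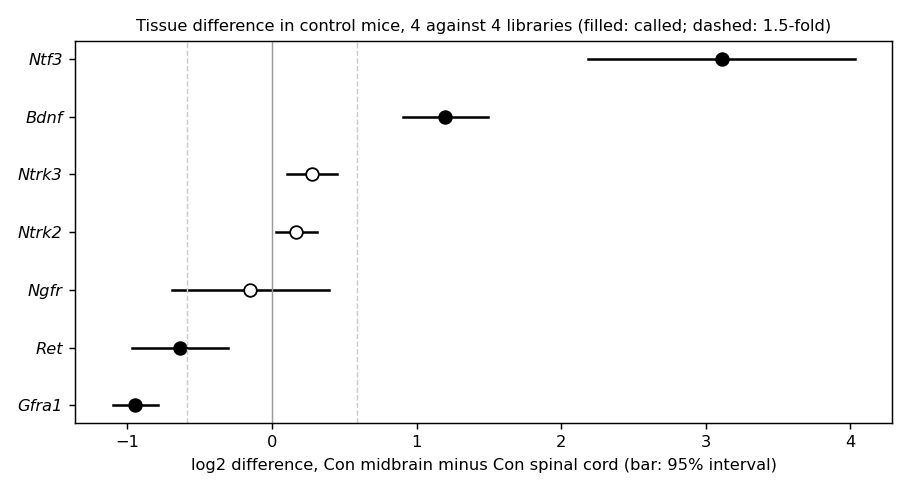
Log2 difference of Con midbrain against Con spinal cord for the 7 genes tested (points), with 95% confidence intervals (lines) from the edgeR fit of 4 libraries per tissue; values right of 0 are higher in the midbrain, and dashed lines mark 1.5-fold. Ntf3 (3.11) and Bdnf (1.20) lie right of the limit and Gfra1 (-0.95) and Ret (-0.64) left of it.

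In the midbrain, none of the genes passed the threshold in any treatment comparison. MPTP-Veh against Con asks what MPTP changed, MPTP-SU against MPTP-Veh what SUEHP changed after MPTP, and MPTP-SU+S and MPTP-SU+T against MPTP-SU what the antagonist and the inhibitor changed on top of SUEHP. These comparisons share the MPTP-Veh or the MPTP-SU libraries, so that their differences are not independent. edgeR called 0 of 7 genes in each, as did DESeq2 and limma-voom, where 0.0180%, 13.5%, 0% and 0% of the 16629 genes tested were called. At an unadjusted edgeR p below 0.05 there were 1, 1, 0 and 0 genes of the 7, against 23.7%, 39.8%, 1.65% and 1.70% of all genes.

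Of the ligands, Ntf3 gave the largest difference with MPTP. It read 0.700, 1.31, 1.93 and 0.841 CPM in midbrain MPTP-Veh, against the 1.98 to 5.57 CPM of Con. All MPTP-Veh values lay below all Con values, by a narrow margin between replicate 3 of the former and replicate 1 of the latter. The log2 difference was -1.39 ± 0.48 (95% interval -2.39 to -0.40, unadjusted p = 0.00861), which did not pass adjustment over all genes in edgeR (adjusted p = 0.132, and 0.317 with -1.27 without MPTP-Veh replicate 4). An exact permutation test, two-sided, gave p = 0.0286, the smallest that 4 against 4 libraries allow. Groups did not overlap for 12.4% of all genes in this comparison and for 1 of the 8, Ntf3.

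In the remaining midbrain groups Ntf3 overlapped MPTP-Veh. It read 0.942, 0.823, 0.759 and 2.28 CPM in MPTP-SU, where replicate 4 stood apart, and the log2 difference from MPTP-Veh was -0.04 with a 95% interval of -1.09 to 1.0. In MPTP-SU+S it read 2.67, 1.54, 0.995 and 1.83 CPM, and in MPTP-SU+T 0.969, 1.30, 3.30 and 1.09 CPM. Both drug groups overlapped MPTP-SU, as they did for each of the 8 genes (no overlap for 2.15% of all genes with SR141716A and 1.97% with T0070907), with log2 differences of 0.56 and 0.49 and 95% intervals of -0.46 to 1.58 and -0.52 to 1.51. The cortical and hippocampal marker sum, listed above, was likewise highest in the Con libraries, and across the 20 midbrain libraries it correlated with Ntf3 at r = 0.54 (Spearman 0.33), which did not pass adjustment over the 200 relations examined (permutation test, adjusted p = 0.133). Within groups the correlation was 0.22, and its part in the Ntf3 difference was not tested.

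Bdnf read 14.6, 13.3, 22.1 and 14.2 CPM in midbrain MPTP-Veh, where replicate 3 lay near the highest Con library and the other 3 below all Con libraries. The log2 difference from Con was -0.26 ± 0.17, with a 95% interval of -0.61 to 0.09 and an edgeR adjusted p of 0.326, and without replicate 3 it was -0.46 (adjusted p = 0.0649). In MPTP-SU, Bdnf read 19.0, 19.5, 14.1 and 16.6 CPM and overlapped MPTP-Veh. Its log2 difference was 0.10 (95% interval -0.25 to 0.45, edgeR adjusted p = 0.671). With a trend on GC content and length removed, both differences turned, to 0.022 for MPTP-Veh against Con and -0.32 for MPTP-SU against MPTP-Veh, so that neither has a settled direction.

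The drug groups also overlapped MPTP-SU in Bdnf, at 18.3 ± 2.49 CPM in MPTP-SU+S and 17.0 ± 2.31 CPM in MPTP-SU+T against 17.3 ± 2.49 CPM. By mean level the midbrain groups ran Con, MPTP-SU+S, MPTP-SU, MPTP-SU+T and MPTP-Veh from high to low, and no neighbours in this order differed beyond their SDs. The 95% intervals of the 4 Bdnf differences together ran from -0.61 to 0.45 on the log2 scale.

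Among the receptors, Ntrk2 had the lowest p-value in the midbrain. It read 415, 401, 407 and 279 CPM in MPTP-Veh and 477, 456, 429 and 420 CPM in MPTP-SU. All MPTP-SU values lay above all MPTP-Veh values, and replicate 4 of MPTP-Veh, the library farthest from its group, was far below the other 3. The log2 difference was 0.24 ± 0.10 (unadjusted p = 0.0342, edgeR adjusted p = 0.0991), and without that library it was 0.13 (adjusted p = 0.216). Groups did not overlap for 21.8% of all genes here and for 1 of the 8.

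Ntrk2 read 426, 387, 442 and 404 CPM in Con, which overlapped MPTP-Veh, and the log2 difference was -0.14 with a 95% interval of -0.36 to 0.08, or -0.02 without the low library. Ntrk3 was also low in the library farthest from its group, at 67.1 CPM against 119 to 157 CPM in the other MPTP-Veh libraries. Over all 4, its log2 difference was -0.17 from Con and 0.05 for MPTP-SU against MPTP-Veh, with 95% intervals of -0.60 to 0.25 and -0.37 to 0.48, and without that library it was 0.03 and -0.15. Gfra1 read 55.9, 48.5, 52.6 and 33.9 CPM in MPTP-Veh, again lowest in replicate 4, and between 50.3 and 55.4 CPM in MPTP-SU, a log2 difference of 0.17 (95% interval -0.09 to 0.42), or 0.04 without that library.

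Ret and Ngfr gave no difference beyond the spread in the 4 treatment comparisons of the midbrain. Ret read 41.9, 88.4, 85.6 and 80.3 CPM in MPTP-Veh and 60.3, 62.0, 89.5 and 100 CPM in MPTP-SU. Both overlapped each other and Con. The mean of Ret was lowest in Con, at 65.6 ± 16.7 CPM, and highest in MPTP-SU+T, at 90.1 CPM (77.6 to 104). The lowest MPTP-SU+T library stood just above the highest Con library, at 76.3 CPM. This pair of groups was not compared, and its share of all genes without overlap was not computed, so that nothing is read from it. The log2 difference of MPTP-Veh against Con was 0.18 with a 95% interval of -0.31 to 0.67. Ngfr lay between 1.96 and 4.52 CPM in all midbrain libraries, and its 4 treatment differences ran from -0.11 to 0.23.

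The order of the midbrain means differed between the receptors. Ntrk2 was at 445 ± 25.9 CPM in MPTP-SU, 445 ± 18.8 in MPTP-SU+T, 443 ± 21.6 in MPTP-SU+S, 415 ± 24.1 in Con and 376 ± 64.5 in MPTP-Veh. Gfra1 ran from 58.1 ± 5.66 CPM in MPTP-SU+T over MPTP-SU, MPTP-SU+S and Con to 47.7 ± 9.71 in MPTP-Veh. Ret ran from MPTP-SU+T over MPTP-SU+S, MPTP-SU and MPTP-Veh to Con. No neighbours in these orders differed beyond their SDs.

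In the spinal cord, 0 of the 6 genes tested passed the threshold in any treatment comparison by edgeR, DESeq2 or limma-voom. Of the 16682 genes tested, 0%, 0%, 0% and 0.0240% were called in MPTP-Veh against Con, MPTP-SU against MPTP-Veh, MPTP-SU+S against MPTP-SU and MPTP-SU+T against MPTP-SU, the last 0.0120% higher and 0.0120% lower. At an unadjusted edgeR p below 0.05 there were 1, 2, 1 and 1 genes of the 6, against 12.8%, 3.81%, 5.49% and 12.1% of all genes. These were Bdnf in the first, Bdnf and Ngfr in the second, Ngfr in the third and Bdnf in the fourth comparison.

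Bdnf read 7.02, 6.25, 7.37 and 5.71 CPM in spinal cord MPTP-Veh, against 7.25 to 9.94 CPM in Con. The groups overlapped at replicate 3 of MPTP-Veh and replicate 1 of Con, and for 0 of the 8 genes were these groups apart, against 4.63% of all genes. The log2 difference was -0.35 ± 0.12 (95% interval -0.60 to -0.10, unadjusted p = 0.00757, edgeR adjusted p = 0.251), and the two-sided exact permutation test gave p = 0.0571. Without Con replicate 2 it was -0.34 (edgeR adjusted p = 0.133).

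In MPTP-SU, spinal cord Bdnf read 7.75, 9.28, 8.17 and 7.49 CPM, and all 4 values lay above those of MPTP-Veh. The log2 difference was 0.31 ± 0.12 (95% interval 0.06 to 0.56), with an unadjusted p of 0.0173 and an edgeR adjusted p of 0.999. Groups did not overlap for 3.31% of all genes in this comparison and for 2 of the 8, Bdnf and Ngfr. With T0070907, Bdnf read 6.56, 5.90, 5.80 and 7.82 CPM, a log2 difference from MPTP-SU of -0.32 ± 0.12 (unadjusted p = 0.0141, edgeR adjusted p = 0.287), and replicate 4 overlapped MPTP-SU; without MPTP-SU+T replicate 1 it was -0.33 (adjusted p = 0.302). With SR141716A it read 7.01, 7.50, 7.28 and 7.07 CPM, a difference of -0.18 (95% interval -0.43 to 0.07). The drug groups overlapped MPTP-SU for all 8 genes, where 4.12% of all genes with SR141716A and 7.91% with T0070907 did not overlap.

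The order of the spinal cord means of Bdnf was Con (8.38 ± 1.18 CPM), MPTP-SU (8.17 ± 0.792), MPTP-SU+S (7.21 ± 0.224), MPTP-Veh (6.59 ± 0.747) and MPTP-SU+T (6.52 ± 0.929). No neighbours in this order differed beyond their SDs. The counts behind these values were 87 to 166 per library. The comparison of MPTP-SU with MPTP-Veh shares libraries with each of the others, so that the 4 differences of Bdnf cannot be read as separate observations.

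Ngfr read 3.45, 3.16, 3.05 and 2.82 CPM in spinal cord MPTP-Veh and 4.56, 6.84, 3.63 and 4.76 CPM in MPTP-SU. The groups did not overlap, and replicate 2 of MPTP-SU was the highest of all 40 libraries. MPTP-SU was higher by 0.66 ± 0.22 on the log2 scale (95% interval 0.20 to 1.12), with an unadjusted p of 0.00645 and an edgeR adjusted p of 0.999, and without that replicate it was 0.47. Con read 2.81, 2.11, 2.94 and 4.79 CPM and overlapped both groups. With SR141716A, Ngfr read 4.59, 3.85, 3.09 and 2.61 CPM, which overlapped MPTP-SU, a difference of -0.48 ± 0.22 (unadjusted p = 0.0388, edgeR adjusted p = 0.899).

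Ngfr is known in Schwann cells and sensory neurons, and markers of spinal roots and dorsal root ganglia varied between the spinal cord libraries. Their summed level was 1799, 1970, 2191 and 1144 CPM in MPTP-SU and 1533, 1383, 904 and 946 CPM in MPTP-Veh, ranges that overlapped, and 780 to 2302 CPM over the 20 libraries. Across those libraries the sum correlated with Ngfr at r = 0.56 (Spearman 0.50), with a permutation p adjusted over 200 relations of 0.104. The part of root tissue in the Ngfr values was not tested.

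The remaining spinal cord receptors were tightly spread and did not differ. Ret lay between 93.9 and 111 CPM in all 20 libraries, Gfra1 between 84.5 and 100, Ntrk3 between 99.5 and 129, and Ntrk2 between 342 and 425 CPM. Their 16 treatment differences ran from -0.08 to 0.09 on the log2 scale. The 95% intervals of all 16 lay between -0.18 and 0.20, so that a 1.5-fold change lay outside each. Ntf3 and Gdnf, not tested here, read 0.0705 to 0.579 and 0 to 0.483 CPM.

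**Figure D4:**
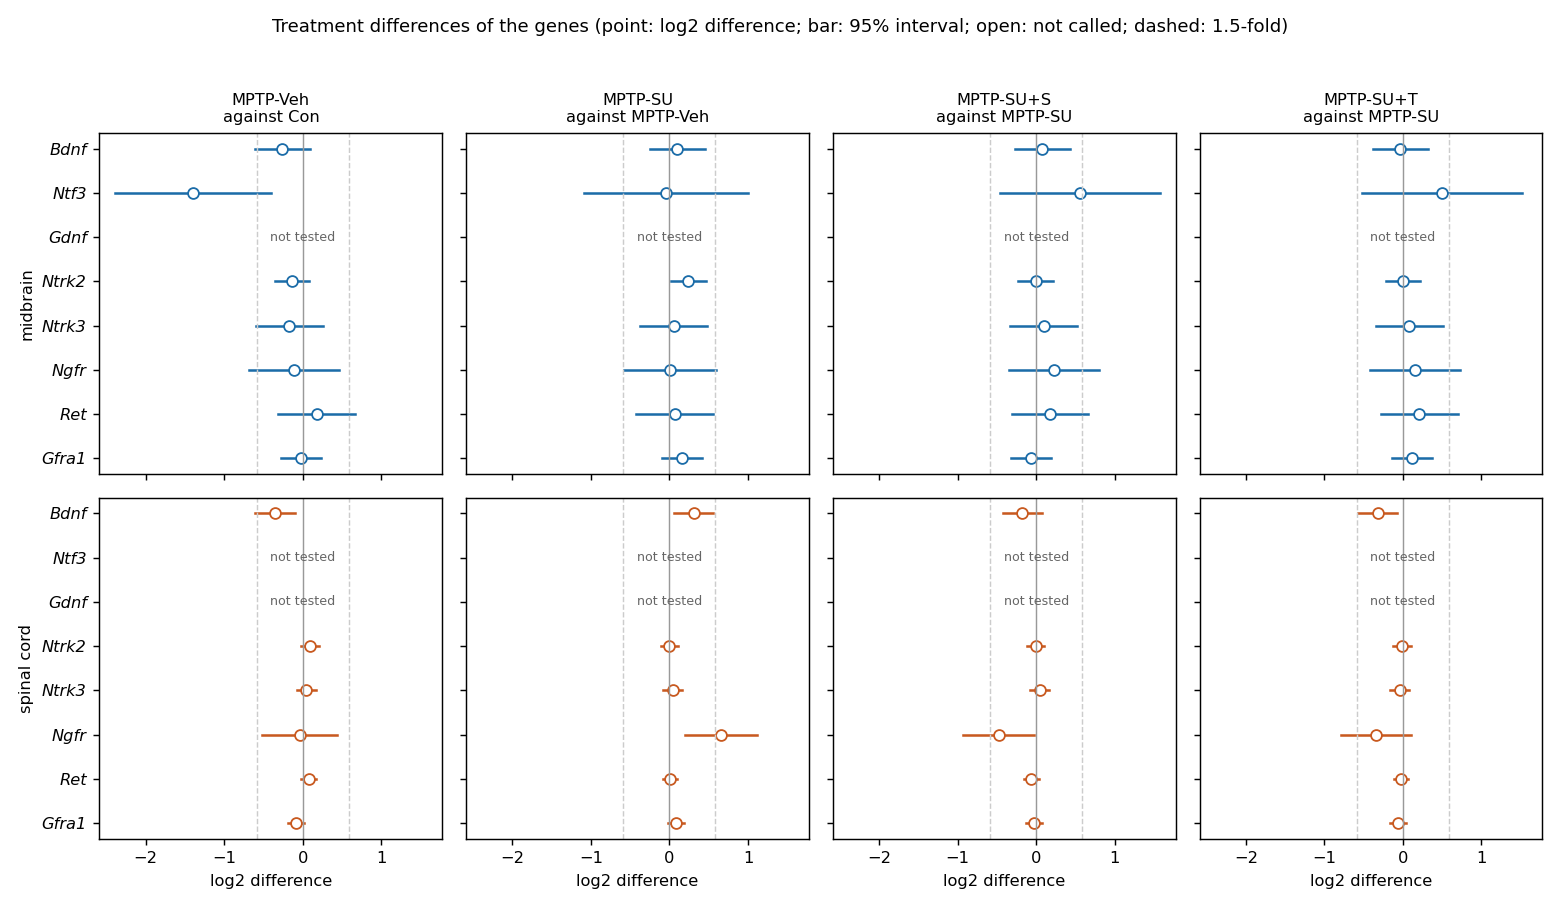
Log2 difference (x axis) of each gene tested in the 4 treatment comparisons of the midbrain and of the spinal cord, as points with 95% confidence intervals from edgeR. The widest intervals belong to Ntf3 in the midbrain, whose difference between MPTP-Veh and Con is -1.39, and the spinal cord intervals of Ret, Gfra1, Ntrk2 and Ntrk3 lie close to 0.

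Described as a list, the genes differed little in their medians. In the midbrain the median log2 difference over the 7 genes was -0.14 for MPTP-Veh against Con, 0.07 for MPTP-SU against MPTP-Veh, 0.10 with SR141716A and 0.11 with T0070907, beside 0.00, 0.00, 0.00 and 0.01 over all genes tested. In the spinal cord the medians over the 6 genes were 0.00, 0.06, -0.04 and -0.05, beside 0.00, 0.00, 0.00 and 0.01. By sign, 1, 6, 5 and 5 of the 7 genes were higher in the 4 midbrain comparisons and 3, 5, 1 and 0 of the 6 in the spinal cord, counts that are not independent between comparisons that share libraries. Tests for any difference among the 5 groups passed adjustment for 0 genes in either tissue, where 7.10% of midbrain and 0.150% of spinal cord genes passed, and the lowest edgeR adjusted p-values were 0.142 for Ntf3 in the midbrain, and 0.192 for Bdnf and 0.268 for Ngfr in the spinal cord.

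Whether a treatment difference itself differed between the tissues was tested in 1 edgeR fit of all 40 libraries. It passed adjustment for 0 of the 7 genes in the 4 comparisons, where 3.12%, 16.8%, 0% and 0% of all 17426 genes passed. The lowest p-values were those of Ntrk2, whose difference in the midbrain minus that in the spinal cord was -0.24 for MPTP-Veh against Con (edgeR adjusted p = 0.172) and 0.25 for MPTP-SU against MPTP-Veh (edgeR adjusted p = 0.130). Both contain the low Ntrk2 value of midbrain MPTP-Veh replicate 4. For Bdnf, the difference in the midbrain minus that in the spinal cord was 0.08 for MPTP-Veh against Con, with a 95% interval of -0.34 to 0.50, and -0.20 for MPTP-SU against MPTP-Veh, with an interval of -0.63 to 0.22.

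The spread of Ret between midbrain libraries followed the dopaminergic neuron markers. Ret was lowest in Con replicate 1 (40.9 CPM) and MPTP-Veh replicate 1 (41.9 CPM), followed by MPTP-SU replicates 1 and 2 (60.3 and 62.0 CPM). The summed level of 10 dopaminergic markers was 373, 366, 373 and 372 CPM in these same libraries, and 408 to 688 CPM in the other 16. Across the 20 libraries, log2 Ret and the log2 marker sum correlated at r = 0.86 (permutation p = 1e-05, the smallest that 100000 resamples give, adjusted p = 0.002 over 200 relations) and Spearman 0.82 (permutation p = 4e-05, adjusted p = 0.008).

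The relation of Ret to the dopaminergic markers held at r = 0.83 without the 2 libraries farthest from the median, at 0.92 within groups and at 0.88 without MPTP-Veh replicate 4. Ret and these markers share library and depth. Hypothalamic markers summed to 661 CPM in MPTP-Veh replicate 1, 464 CPM in Con replicate 3 and at most 118 CPM in the other midbrain libraries. The sum of MPTP-Veh replicate 1 was almost wholly Pomc, at 656 CPM, so that it does not show the reach of a dissection by itself. The part of these markers in Ret was not tested. The dopaminergic marker sum did not separate the groups: it was 489 ± 88.6 CPM in Con and 568 ± 143 CPM in MPTP-Veh, with overlapping ranges. It was led by Aldh1a1, at a mean of 243 CPM in the midbrain, which also averaged 184 CPM in the spinal cord. The sum therefore does not measure dopaminergic neurons alone. Slc6a3, the dopamine transporter, ranged from 17.7 to 129 CPM and Th, tyrosine hydroxylase, from 17.0 to 109 CPM over the midbrain libraries. In the spinal cord, where Slc6a3 did not exceed 0.302 CPM and Slc18a2, the vesicular monoamine transporter, did not exceed 0.423 CPM, Ret was higher in Con and varied least of the 8 genes.

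**Figure D5:**
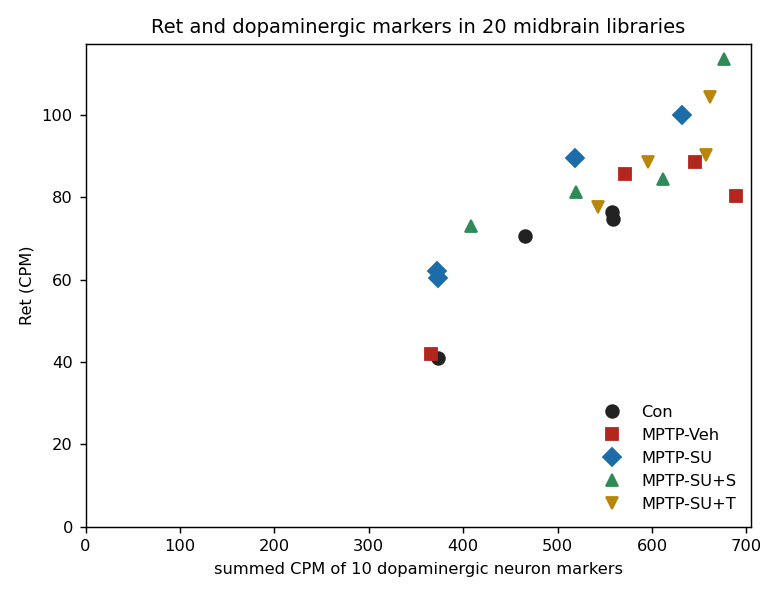
Ret (y axis, CPM) against the summed level of 10 dopaminergic neuron markers (x axis, CPM) in the 20 midbrain libraries, with a colour and symbol for each group. Libraries with low marker sums, such as Con replicate 1 (373 CPM) and MPTP-Veh replicate 1 (366 CPM), have the lowest Ret, and each group is spread along the relation.

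Of the other relations between a gene and a marker sum, Ntrk3 with oligodendrocyte markers (r = -0.81) and with microglia markers (r = -0.87) in the midbrain passed adjustment for r but not for Spearman's coefficient, and without MPTP-Veh replicate 4 they were -0.50 and -0.68. The same held for Ntrk2 with cerebellar markers in the midbrain (r = 0.66, and 0.52 without that library) and for Ntrk3 with the mitochondrially encoded genes in the spinal cord (r = 0.69).

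The genes most like each of the 8 were named by the correlation of log2 CPM over the 20 libraries of a tissue, given as a description with no test. Those most like Ret in the midbrain were Slc18a2 (r = 0.85), Th (0.83) and Gucy2c (0.81), the first 2 of them dopaminergic markers, and without MPTP-Veh replicate 4 Th remained among the leading 3 at 0.89. For Ntrk2 in the midbrain they were Zfp748, Klhl13 and Yes1 (0.98 each), which fell to Klhl13 (0.93), Dpy19l4 and Gabrg1 (0.92 each) without that library. For Ntrk3 they were Lsamp, Ryr2 and A830018L16Rik (0.95, 0.95 and 0.93). Bdnf was most like Cers6 (0.77) in the midbrain and Dnaja1 (0.77) in the spinal cord, and Ngfr in the spinal cord most like Grik4 (0.80). All libraries of a tissue share treatment and dissection differences, which enter these values.

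The rest of the pathway was examined in 6 lists holding 85 genes, of which 77 were tested in the midbrain, 76 in the spinal cord and 74 between the Con tissues. In the midbrain, MPTP-SU against MPTP-Veh called 4 higher and 4 lower (edgeR, against 4.35% and 9.10% of all genes), while the remaining 7 treatment comparisons called 0 in either direction. Of the 9 other receptors, Sorcs1, a sorting receptor of the sortilin family, rose by 0.65 ± 0.21 (log2, adjusted p = 0.0376). Of the 28 adaptors and effectors, Shc3, a neuronal adaptor of Trk receptors, rose by 0.75 ± 0.26 (adjusted p = 0.0473), although its groups overlapped, and Dok5, an adaptor of Ret, fell, with a difference of -0.83 ± 0.16 (adjusted p = 0.00625).

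Of the 13 p75 partners, Bex3, a binding partner of the p75 death domain, was lower in MPTP-SU than in MPTP-Veh at 110 ± 11.5 against 185 ± 35.9 CPM (log2 -0.76, edgeR adjusted p = 0.00469), its relative Bex1 differed by -1.10 (adjusted p = 0.00639), and Arhgdia by -1.0 (adjusted p = 0.0265). Of the 14 feedback and response genes, the ERK phosphatase gene Dusp6 rose by 0.85 (adjusted p = 0.0229) and the transcription factor Etv1 by 0.74 (adjusted p = 0.0243). Without MPTP-Veh replicate 4, a setting chosen after seeing the data, 3.40% of all genes were called and 3 of these 8 genes: Bex3 (-0.61), Bex1 (-0.73) and Dusp6 (0.74). Of the others, Arhgdia went from -1.0 to -0.33, Sorcs1 was at 0.42, Etv1 at 0.55 and Dok5 at -0.58 (edgeR adjusted p = 0.000972), each past the adjusted p but under the fold limit, and Shc3 at 0.69 had an adjusted p of 0.0962. None of the 5 other ligands or 8 processing genes tested was called in the midbrain in any treatment comparison.

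Between the Con tissues, 8 of the 74 pathway genes tested were higher and 10 lower in the midbrain by edgeR, against 7.74% and 9.68% of all genes. Among 4 other ligands tested, Cdnf was lower (log2 -0.96, adjusted p = 0.00596). Of 8 other receptors, Gfra2, the co-receptor that binds neurturin, was higher (log2 0.95, adjusted p = 0.000384), opposite in sign to Gfra1. Of 9 genes that process proneurotrophins, the protease inhibitor gene Serpini1 was higher (log2 0.73) and Mmp9, a matrix protease, lower (-2.78, adjusted p = 4.72e-06).

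Of the 26 adaptors and effectors, 8 were called lower in the midbrain and 0 higher, against 9.68% and 7.74% of all genes, with the smallest p for Pik3r1, the regulatory subunit of PI3-kinase (log2 -0.85, edgeR adjusted p = 6.39e-07), the docking protein gene Gab2 (-1.01, adjusted p = 1.19e-06) and the phosphatase gene Ptpn11 (-0.85, adjusted p = 1.82e-06). Of 13 p75 partners, Bex1 (log2 1.02), the Nogo receptor gene Rtn4r (2.12) and its partner Lingo1 (1.12) were higher, and of 14 feedback and response genes Vgf was higher (0.62, adjusted p = 0.00177). The cortical marker sums given for the ligands apply to these Con midbrain libraries as well.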

How the data were processed

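mRNA was sequenced from midbrain and spinal cord of the 5 groups (40 libraries, poly(A) CORALL V2, paired-end). The authors used fastp for trimming, STAR for alignment and Salmon for quantification, on GRCm39 per the submitters' processing notes, which also list GATK; versions are not given in the sources used here. The deposited values are estimated counts, whole after rounding by the authors and without normalization. In R 4.3.3, counts were filtered (filterByExpr), TMM-normalized and fitted with edgeR 4.0.16 (quasi-likelihood test) over the 20 libraries of a tissue, the 8 Con libraries or all 40, with Benjamini-Hochberg adjustment over all genes tested. A gene was called at an adjusted p-value below 0.05 and above 1.5-fold. CPM used 1 TMM scale over the 40 libraries. Log2 CPM with a prior count of 2 served for correlations (100000 resamples for p-values), and genes most like each gene were taken among those with a mean of at least 1 CPM. Every called pathway gene is named, or the 3 of smallest p where a list has over 6 in a direction, except for some genes that are counted but not reported here. The fitting code was tested on simulated data. The genes and lists were chosen with earlier results of these data known. Alternatives were DESeq2 1.42.0, limma-voom (limma 3.58.1), other scalings, low-count filters, a replicate block, removal of a GC and length trend, the libraries of a comparison alone, and each library left out. Lengths came from GENCODE vM21 and promoter windows from RefSeq, both on GRCm38. The labels do not say that replicate numbers pair libraries, and the fits took them as unpaired. Correlations of same-numbered libraries' deviations ran from -0.0842 to 0.241. They averaged 0.137 in midbrain MPTP-SU against MPTP-Veh and 0.128 in midbrain MPTP-SU+T against MPTP-SU, where other numbers averaged -0.0419 and -0.0424. In the other comparisons they averaged at most 0.0636. What same-numbered libraries share was not tested.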

Additional observations from a re-analysis of the deposited data

Results flagged for a closer look

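The values of the 8 genes in each group and tissue made 80 sets of 4. In 9 of these sets, 1 library stood apart from the other 3 by Dixon's criterion. Chance alone would mark about 1 in 20 independent sets, but these sets share libraries, so that an excess cannot be read from the count. In the midbrain, Bdnf was 22.1 CPM in MPTP-Veh replicate 3 against 13.3 to 14.6 CPM in the other 3, and Ntrk2 was 279 CPM in MPTP-Veh replicate 4, the library low in mitochondrial counts, against 401 to 415 CPM. Ntf3 was 2.28 CPM in MPTP-SU replicate 4 against 0.759 to 0.942 CPM, and 3.30 CPM in MPTP-SU+T replicate 3 against 0.969 to 1.30 CPM. Ret was 40.9 CPM in Con replicate 1 against 70.5 to 76.3 CPM, and this library was also lowest of its group in the dopaminergic marker sum, at 373 CPM. Gfra1 was 50.3 CPM in MPTP-SU replicate 2 against 54.7 to 55.4 CPM.

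In the spinal cord, MPTP-SU+S replicate 1 was marked for both Ntrk3 (115 CPM against 127 to 129 CPM) and Ret (93.9 CPM against 106 to 107 CPM), and it had the highest root and ganglion marker sum of its group, 2287 CPM. Ntf3 was 0.544 CPM in MPTP-Veh replicate 1 against 0.131 to 0.189 CPM, a level of few counts. The part of these markers in the values was not tested.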

How the results depend on the processing

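No gene of the 8 was called in the 8 treatment comparisons under the main fit or in any of 984 values from the alternatives, of which 71 had the opposite sign, the largest at -0.39 on the log2 scale, that of midbrain Ntrk3 for MPTP-SU against MPTP-Veh with the GC and length trend removed (adjusted p = 0.0622); the lowest adjusted p was 0.0517, that of midbrain Ntf3 for MPTP-Veh against Con without MPTP-Veh replicate 3. Tests over the 5 groups and between tissues also stayed at 0. Between the Con tissues 3 to 5 genes were called: Bdnf (1.12 to 1.29) and Gfra1 (-1.0 to -0.81) under all 19 alternatives, Ntf3 under all 18 that kept it (2.25 to 3.35) and Ret under 15 of 19. Ret fell short of the threshold with library size alone (-0.58), with the GC and length trend removed (-0.51), averaged over all 40 libraries (-0.42) and without midbrain Con replicate 1 (-0.46), and Ntrk3 passed with the adjusted p alone.

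Signs turned for midbrain Bdnf for MPTP-SU+T against MPTP-SU (-0.03; 0.062 with library size alone, 0.0097 with the GC and length trend removed, -0.12 to 0.038 leaving out a library), for MPTP-Veh against Con (0.022) and for MPTP-SU against MPTP-Veh (-0.32), both with that trend removed, for MPTP-SU+S against MPTP-SU (-0.017 to 0.14 leaving out a library), and Ngfr between the Con tissues (-0.30 to 0.12, the last without spinal cord Con replicate 4). The causes were not tested. With library size alone, midbrain Ntrk3 in Con was 144 CPM and Gfra1 in MPTP-SU 51.4 CPM. Without MPTP-Veh replicate 4, a setting chosen after seeing the data, pathway genes called for MPTP-SU against MPTP-Veh went from 8 to 3. A replicate block gave 0 calls in the treatment comparisons and 4 between the Con tissues, as without it. The labels state no link between same-numbered libraries beyond the number. Ntf3 in the spinal cord and Gdnf in both tissues are limited by depth, at 10 counts or fewer per library.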
